A study of Mus musculus with 36 samples.

Results

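The genes described here are 49 genes that copy DNA or supply the nucleotides for it, out of 46603 genes in the count tables. They were chosen by name and by the complex they belong to, with earlier results of these data known. All 49 were found and passed the filter on low counts at both ages. They comprise 6 genes of the origin recognition complex, 3 licensing genes, 7 minichromosome maintenance (MCM) genes, 8 genes of helicase activation, 9 polymerase and primase genes, 6 genes of the sliding clamp and its loader, 6 genes of single-strand binding and fragment joining, and 4 genes of nucleotide supply. RNA was sequenced from the forebrain of C57Bl/6J mouse embryos with graded loss of Chd8, which encodes an ATP-dependent chromatin remodeller linked to autism. The embryonic day 12.5 (E12.5) cortex came from 4 genotypes with 3 libraries each, 1 embryo per library. These were Chd8+/+, the heterozygote Chd8+/- with 1 null allele, the mild hypomorph Chd8neo/neo with a neomycin cassette and loxP sites around exon 3 on both alleles, and the severe hypomorph Chd8neo/- with 1 such allele and 1 null allele. At E10.5 there were 3 libraries of the conditional knockout (cKO, sox1-Cre; Chd8f/f) and 3 of controls (Ctrl), each pooled from 2 embryos. The study names the E10.5 tissue as telencephalic vesicles and the E12.5 tissue as neocortex. The E10.5 controls carried floxed alleles, in GEO's labels as a mix of Chd8f/f and Chd8 f/+, and in the study's methods as flox/flox embryos without Cre. The neo allele came from injected embryonic stem cell clones, the null allele was made by a ubiquitous β-actinCre and then bred free of it, and Sox1-Cre deletes in early neural progenitors. Replicates came from different litters.

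A cell copies its genome once per division. In G1 the origin recognition complex marks origins, and Cdc6 and Cdt1 load the MCM helicase there, while geminin (Gmnn) holds Cdt1 back once S phase has begun. Cdc45 and the GINS complex then turn MCM into the running helicase, primase and the DNA polymerases copy the strands, and ribonucleotide reductase, thymidylate synthase and thymidine kinase supply deoxynucleotides. In the embryonic forebrain these genes are used by the dividing progenitors, and neurons switch most of them off. Many of them are classical targets of E2F transcription factors.

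Promoters of 5 members are shown because genes called higher in a hypomorph (Mcm6, Mcm8 and Pold1) and genes called lower in the cKO (Rfc3 and Pole2) both hold letters of the E2F class. The windows span 250 bases before to 50 bases after the transcription start, from RefSeq on GRCm38.p6, 5′ to 3′ on the gene's strand. Capitals mark an E2F match (TTTCCCGC, TTTCGCGC, TTTGCCGC or TTTGGCGC, read on both strands) or a CCAAT box (CCAAT on either strand). Overlapping E2F matches share 1 run of capitals, as in Mcm6, and no other motif is marked.
Mcm6, chr1:128359656-128359955, minus strand: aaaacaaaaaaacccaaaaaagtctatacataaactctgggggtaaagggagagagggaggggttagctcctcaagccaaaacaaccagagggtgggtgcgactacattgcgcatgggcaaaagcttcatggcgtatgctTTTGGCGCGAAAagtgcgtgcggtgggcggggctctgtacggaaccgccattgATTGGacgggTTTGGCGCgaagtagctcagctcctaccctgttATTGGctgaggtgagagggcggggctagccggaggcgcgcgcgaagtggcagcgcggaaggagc
Mcm8, chr2:132815891-132816190, plus strand: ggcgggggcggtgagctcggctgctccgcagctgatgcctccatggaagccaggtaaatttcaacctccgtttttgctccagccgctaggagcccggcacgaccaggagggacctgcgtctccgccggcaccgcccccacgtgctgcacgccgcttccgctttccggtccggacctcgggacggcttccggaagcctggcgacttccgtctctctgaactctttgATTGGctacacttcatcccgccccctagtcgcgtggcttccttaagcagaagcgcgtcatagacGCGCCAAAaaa
Pold1, chr7:44548766-44549065, minus strand: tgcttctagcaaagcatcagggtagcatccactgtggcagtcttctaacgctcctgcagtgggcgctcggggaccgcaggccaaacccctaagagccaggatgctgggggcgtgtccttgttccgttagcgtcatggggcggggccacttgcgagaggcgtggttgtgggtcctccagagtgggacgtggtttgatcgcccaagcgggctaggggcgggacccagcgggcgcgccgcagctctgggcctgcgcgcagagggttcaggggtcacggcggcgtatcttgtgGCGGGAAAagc
Rfc3, chr5:151651159-151651458, minus strand: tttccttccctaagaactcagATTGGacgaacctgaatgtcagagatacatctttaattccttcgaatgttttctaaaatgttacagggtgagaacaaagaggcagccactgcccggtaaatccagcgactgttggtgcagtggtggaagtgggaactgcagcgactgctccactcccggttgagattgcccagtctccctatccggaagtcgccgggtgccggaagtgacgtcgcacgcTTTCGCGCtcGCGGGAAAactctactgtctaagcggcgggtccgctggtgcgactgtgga
Pole2, chr12:69228141-69228440, minus strand: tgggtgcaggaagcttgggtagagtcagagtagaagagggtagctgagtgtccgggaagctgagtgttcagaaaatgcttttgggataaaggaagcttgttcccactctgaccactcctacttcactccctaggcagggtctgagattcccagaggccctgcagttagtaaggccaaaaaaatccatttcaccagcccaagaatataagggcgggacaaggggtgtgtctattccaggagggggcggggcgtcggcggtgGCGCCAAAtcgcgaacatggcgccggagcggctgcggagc

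Of the 49 genes, 41 had a promoter window, and the first listed window of 15 of them (36.6%) held an E2F match, against 2.32% of the first windows of all 27025 genes. A CCAAT box stood in 24 of the 41 (58.5%, all genes 37.9%), and the cell cycle homology letters TTTGAA of mitotic promoters in 4 (9.76%, all genes 18.1%). Among the genes called higher in a hypomorph, 6 of the 14 with a window held an E2F match, namely Cdt1, Mcm3, Mcm6, Mcm8, Orc3 and Pold1. Among those called lower in the cKO it was 2 of 7, Rfc3 and Pole2, and among the remaining genes 7 of 21. These counts describe letters in a window and not binding.

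The 12 libraries from E12.5 held 38774591 to 61051667 counts each and the 6 from E10.5 held 49632937 to 68488879, and the lowest count of any of the 49 genes in a library was 364. Chd8 itself was lower in every mutant library than in its controls, but its counts do not rank the mild hypomorph below the heterozygote. It read 237, 235 and 239 in Chd8+/+, 165, 170.2 and 165 in Chd8+/-, 213, 203 and 211 in Chd8neo/neo, and 158, 147 and 142 in Chd8neo/-, in CPM, that is counts relative to a TMM-adjusted library size. Every Chd8neo/neo library lay above every Chd8+/- library, and the log2 fold changes (± SE) were -0.51 ± 0.04 in Chd8+/-, -0.18 ± 0.04 in Chd8neo/neo and -0.67 ± 0.04 in Chd8neo/-. At E10.5 it read 160.0, 168 and 184 in Ctrl against 120.5, 125 and 116 in cKO (-0.50 ± 0.06, adjusted p = 0.00109). Counts over the whole gene include exons that are not deleted or lie before the cassette, so they do not measure intact transcript or protein. The study's RT-PCR and Western blots put Chd8 transcript and full-length CHD8 protein lower in Chd8neo/neo than in Chd8+/-. Markers of radial glia, the dividing progenitors that use the replication genes, were present at both ages (Sox2 200.7 to 291.2 CPM at E12.5 and 205.3 to 223.4 at E10.5), with the dorsal marker Emx2 at 109.2 to 160.4 and 138.0 to 163.9 CPM. Mitochondrial genes took 0.765 to 0.966% of counts in Ctrl and 1.02, 1.91 and 1.84% in the cKO libraries, and 2.497 to 3.012% at E12.5.

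Replication genes were higher in both hypomorphs at E12.5, by small amounts. From these same data the study had already reported that genes raised in hypomorphs were enriched for DNA replication, so the counts below are no independent test. In Chd8neo/neo, 14 of the 49 genes rose and 0 fell (edgeR's quasi-likelihood test, adjusted p under 0.05). Of all 18810 genes tested, 3.71% were called higher and 4.45% lower. The median log2 fold change of the 49 was 0.14 (all genes 0.005), and 45 were above 0. An unadjusted p under 0.05 was found for 29 (all genes 4746 of 18810). In 23 every Chd8neo/neo library lay above every Chd8+/+ library, but such non-overlap was not counted over all genes. In Chd8neo/-, 13 genes rose and 1 fell, against 5.48% and 5.99% of all genes, with a median of 0.11 (all genes 0.001) and 44 genes above 0. In 26 all 3 libraries lay above the controls, again without a count over all genes. In Chd8+/-, 0 of the 49 genes were called with edgeR or with DESeq2, and the median was 0.02. An unadjusted p under 0.05 was found for 4 (all genes 1190 of 18810). The background there was 0.0159% higher and 0.00532% lower. All 3 comparisons share the Chd8+/+ libraries. Each call was repeated in 22 alternative analyses (another scaling, filter, tool or model term, 1 sequencing run, trends removed, or 1 library left out). In Chd8neo/neo the calls of Cdt1, Pold1, Pold2 and Rfc5 held in all 22, and each of the other 10 was lost in 2 to 13. In Chd8neo/- the calls of Gins2, Gins4, Mcm8, Pold2, Rfc2, Rfc4 and Rfc5 held in all 22, and each of the other 7 was lost in 3 to 12.

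By the median, the rise was seen in every Chd8neo/- library, but in Chd8neo/neo it was clear in replicates 1 and 2 only. Measured as the median of the 49 genes on the log2 scale from the control mean, the Chd8+/+ libraries stood at -0.06, 0.02 and 0.03, and the Chd8+/- libraries at 0.001, -0.02 and 0.07. Chd8neo/neo replicates 1, 2 and 3 stood at 0.19, 0.16 and 0.05, with 47, 47 and 39 genes above the control mean, so replicate 3 was the nearest to the controls. It stood below Chd8+/- replicate 3. Replicate 3 of Chd8+/+, of Chd8+/- and of Chd8neo/- also had 39 genes above the control mean. Chd8neo/- libraries stood at 0.09, 0.13 and 0.09. The summed level of the 49 genes was 5341.5 to 5684.7 CPM in Chd8+/+, 5453.7 to 5757.3 in Chd8+/-, 5714.5 to 6326.5 in Chd8neo/neo and 5846.8 to 6051.3 in Chd8neo/-. The 2 hypomorphs did not overlap Chd8+/+, and 1 Chd8+/- library lay above the lowest Chd8neo/neo library. The count of 14 in Chd8neo/neo depended on single libraries: it was 4 without Chd8neo/neo replicate 2, 5 without replicate 1, 23 without replicate 3 and 6 without Chd8+/+ replicate 1. Calls over all genes moved too: 697 were higher with all libraries, and 196, 258, 999 and 553 in those fits, in the same order. By Xist and Y-linked counts all 3 Chd8neo/- embryos were male, against 2 of 3 in Chd8+/+ and 1 of 3 in Chd8neo/neo, and with sex as a covariate 13 genes rose in Chd8neo/neo and 16 in Chd8neo/-. With that covariate 446 and 911 of all genes rose. The count of 13 in Chd8neo/- was 7 without Chd8neo/- replicate 1 or 2 and 8 without Chd8+/+ replicate 2. Over all genes, 1031 were higher there with all libraries, and 521, 480 and 849 in those fits. In such bulk tissue a change in the number of cells of a type and a change in RNA per cell cannot be told apart.

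**Figure D1:**
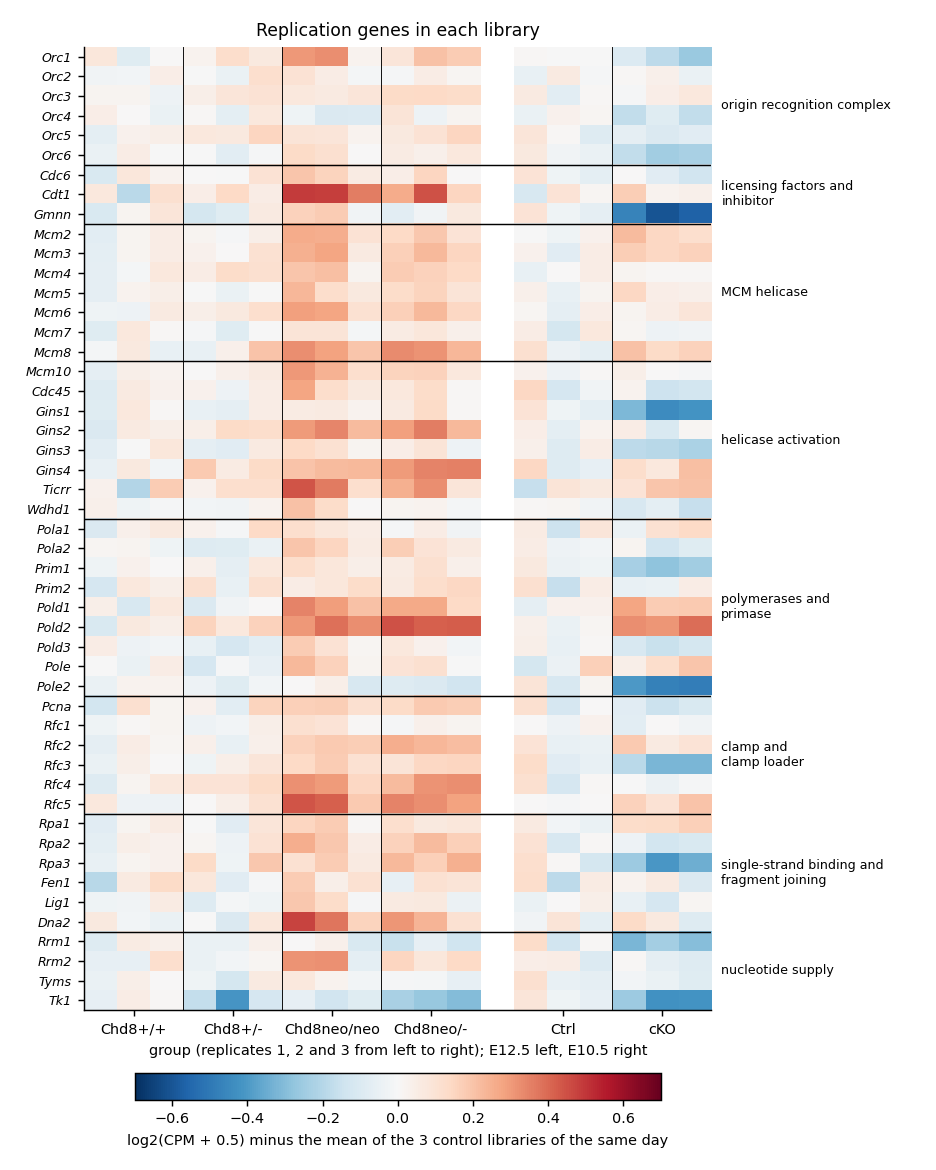
Each row is 1 of the 49 genes, ordered by role, and each column 1 library. Colour gives log2(CPM + 0.5) minus the mean of the 3 control libraries of the same day, from -0.7 (blue) to 0.7 (red). Chd8neo/neo replicates 1 and 2 are above the control mean in 47 of 49 genes each, and the cKO columns hold both colours.

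In the E10.5 cKO more of the genes fell than rose. 9 of the 49 (18.4%) fell, namely Gmnn, Pole2, Gins1, Tk1, Prim1, Rpa3, Rfc3, Rrm1 and Orc6. 2 (4.08%) rose, Pold2 and Pold1. Of all 18435 genes, 5.7% fell and 5.75% rose, so the share that rose was not above that of all genes. The median log2 fold change was -0.02 (all genes -0.002), with 19 genes above 0 and 30 below. In 9 genes every cKO library lay above every Ctrl library and in 14 below, but such non-overlap was not counted over all genes. The summed level of the 49 genes did not separate the groups (8233.6 to 8736 CPM in Ctrl, 8294.6 to 8506 in cKO). Without cKO replicate 2 the count of lower genes was 3 and without cKO replicate 3 it was 4. Over all genes, 1050 were lower with all libraries, and 248 and 406 in those fits. Pold1 was not called without Ctrl replicate 1 or 3 or without any 1 of the cKO libraries. The calls of Gmnn, Pole2, Gins1 and Pold2 held in all 14 alternative analyses run at E10.5, and each of the other 7 was lost in 1 to 6. By Xist and Y-linked counts each Ctrl pool held 1 sex (female in replicates 1 and 3, male in replicate 2) and each cKO pool held both, and the part of sex in these calls was not tested. Because Ctrl embryos carry floxed alleles and lack Cre, Cre itself and the loss of Chd8 cannot be told apart.

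**Figure D2:**
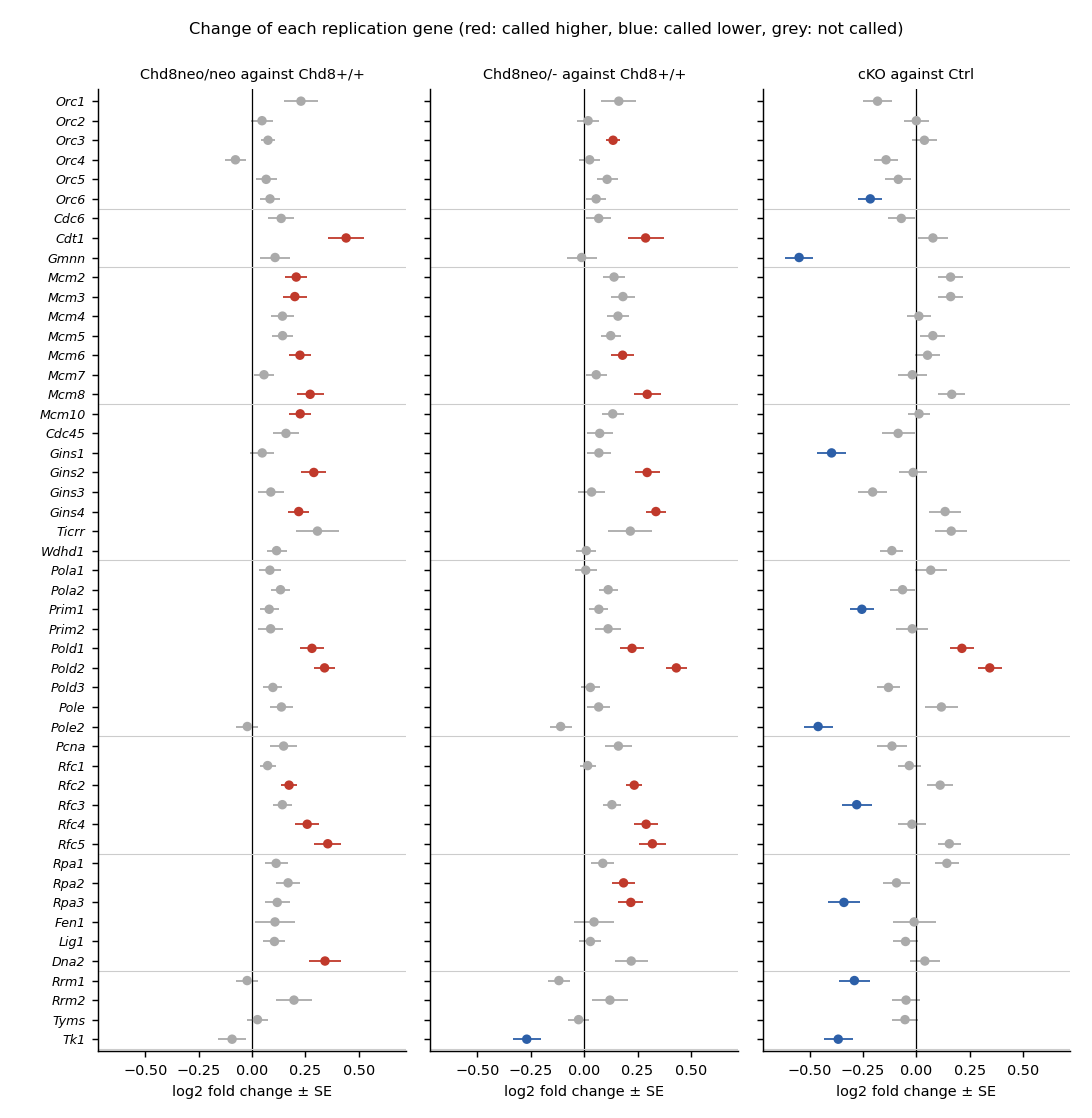
Log2 fold change of each of the 49 genes (points) with its standard error (bars) in Chd8neo/neo and Chd8neo/- against Chd8+/+ and in cKO against Ctrl. Red marks genes called higher and blue genes called lower: 14 and 0, 13 and 1, and 2 and 9 from left to right.

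The origin recognition complex, which marks the sites where replication can begin, held few calls. In Chd8neo/neo 0 of its 6 genes were called (2 with an unadjusted p under 0.05), in Chd8neo/- 1 was higher, and in the cKO 1 was lower. Orc3, a core subunit, read 99.8, 99.8 and 96.03 in Chd8+/+, 101, 105 and 106 in Chd8+/-, 104, 103 and 105 in Chd8neo/neo, and 108, 109 and 108 in Chd8neo/- CPM. All Chd8neo/- libraries lay above the other E12.5 libraries, and the rise was 9.82% in Chd8neo/- (0.14 ± 0.03, adjusted p = 0.0202), with 0.07 ± 0.03, adjusted p = 0.185 in Chd8neo/neo. At E10.5 it read 109, 99.6 and 105 in Ctrl against 104, 108 and 110.3 in cKO CPM, and the groups overlapped (0.04 ± 0.06, adjusted p = 0.725). Orc6, the smallest subunit, read 64.1, 68.7 and 66.03 in Chd8+/+, 66.2, 62.95 and 65.8 in Chd8+/-, 72.7, 71.7 and 66.3 in Chd8neo/neo, and 68.9, 67.8 and 69.9 in Chd8neo/- CPM, with hypomorph libraries overlapping Chd8+/+. In the cKO it fell by 13.9%, from 118, 110.3 and 109 to 99.4, 94.6 and 95.8 CPM, with no overlap (-0.22 ± 0.06, adjusted p = 0.0341). Orc1, the ATPase subunit that comes and goes with the cell cycle, read 15.1, 13.4 and 14.3 in Chd8+/+, 14.5, 15.6 and 14.99 in Chd8+/-, 17.7, 18.05 and 14.5 in Chd8neo/neo, and 15.2, 16.6 and 16.3 in Chd8neo/- CPM, and 42.3, 42.03 and 42.1 in Ctrl against 39.4, 37.03 and 35.1 in cKO. Its values were 0.23 ± 0.08, adjusted p = 0.096 in Chd8neo/neo and -0.18 ± 0.07, adjusted p = 0.1 in the cKO, neither of them called. Orc2, Orc4 and Orc5 were called in no comparison, with log2 fold changes of -0.14 to 0.11 over the 2 hypomorphs and the cKO.

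Of the 3 licensing genes, Cdt1 rose in both hypomorphs and Gmnn fell in the cKO. Cdt1, which brings MCM to the origin, read 56.5, 46.96 and 58.1 in Chd8+/+, 55.3, 59.02 and 55.6 in Chd8+/-, 75.4, 75.05 and 68.9 in Chd8neo/neo, and 64.3, 73.3 and 59.6 in Chd8neo/- CPM. Each hypomorph library was above every Chd8+/+ library, and Cdt1 had the largest log2 fold change of the 49 in Chd8neo/neo (0.44 ± 0.08, adjusted p = 0.00996), a rise of 35.7%. In Chd8neo/- the rise was 22% (0.29 ± 0.08, adjusted p = 0.0424), a call lost in 12 of the 22 alternatives, namely the replicate block, no filter, only the 2 groups, length and GC trends removed, and leaving out any 1 of Chd8+/+ replicate 1 or 2, Chd8+/- replicate 1 or 3, Chd8neo/neo replicate 1 or 2, or Chd8neo/- replicate 1 or 2. Ctrl and cKO overlapped, with 102, 118 and 112 in Ctrl against 125, 113 and 113 in cKO CPM (0.08 ± 0.07, adjusted p = 0.511), and the difference between the cKO change and that in either hypomorph was not called (-0.36 ± 0.11, adjusted p = 0.0584 and -0.21 ± 0.11, adjusted p = 0.283). Gmnn encodes geminin, which binds Cdt1 and prevents a second round of licensing. It read 37.97, 41.5 and 43.4 in Chd8+/+, 37.6, 38.6 and 42.7 in Chd8+/-, 45.8, 46.4 and 40.3 in Chd8neo/neo, and 38.8, 40.2 and 42.8 in Chd8neo/- CPM, and no comparison at E12.5 was called (Chd8neo/neo 0.11 ± 0.07, adjusted p = 0.365). In the E10.5 groups it read 106, 97.1 and 94.9 in Ctrl against 71.7, 65.1 and 66.9 in cKO CPM, without overlap. It fell by 31.7%, the largest fall among the 49 genes (-0.55 ± 0.06, adjusted p = 0.000623). Cdc6, which loads MCM together with Cdt1, was not called (0.14 ± 0.06, adjusted p = 0.169 in Chd8neo/neo, 0.07 ± 0.06, adjusted p = 0.522 in Chd8neo/-, -0.07 ± 0.06, adjusted p = 0.52 in the cKO).

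All 7 MCM genes had positive log2 fold changes in both hypomorphs, 0.06 to 0.27 in Chd8neo/neo and 0.06 to 0.29 in Chd8neo/-. Called higher were 4 in Chd8neo/neo (Mcm2, Mcm3, Mcm6 and Mcm8) and 2 in Chd8neo/- (Mcm6 and Mcm8). Mcm6, a subunit of the hexameric helicase, read 272, 271 and 289 in Chd8+/+, 285, 291 and 301 in Chd8+/-, 338, 336 and 298 in Chd8neo/neo, and 312, 324 and 306 in Chd8neo/- CPM, so the groups did not overlap Chd8+/+. It rose in Chd8neo/neo (0.22 ± 0.05, adjusted p = 0.0199) and in Chd8neo/- (0.18 ± 0.05, adjusted p = 0.0385), and read 441, 418 and 451 in Ctrl against 443, 452 and 463 in cKO CPM at E10.5 (0.05 ± 0.06, adjusted p = 0.611). Mcm8 is not part of that hexamer and acts in recombination repair with Mcm9. Its levels were 34.3, 36.4 and 33.4 in Chd8+/+, 33.5, 35.5 and 39.9 in Chd8+/-, 43.6, 42.3 and 39.8 in Chd8neo/neo, and 43.7, 43.2 and 40.8 in Chd8neo/- CPM, with 1 Chd8+/- library inside the range of Chd8neo/neo. It rose in both hypomorphs (0.27 ± 0.06, adjusted p = 0.021 and 0.29 ± 0.06, adjusted p = 0.0096). The E10.5 levels were 67.2, 60.4 and 59.4 in Ctrl against 71.7, 68.4 and 69.7 in cKO CPM, with all cKO libraries above Ctrl and no call (0.17 ± 0.06, adjusted p = 0.119). Mcm2, whose tail also carries histones, read 275.9, 294 and 301 in Chd8+/+, 294, 289 and 298 in Chd8+/-, 347, 346 and 311 in Chd8neo/neo, and 319, 330.1 and 309 in Chd8neo/- CPM and 425, 417 and 434 in Ctrl against 495, 470.4 and 461 in cKO CPM. It rose in Chd8neo/neo (0.21 ± 0.05, adjusted p = 0.0251) and was not called in Chd8neo/- (0.14 ± 0.05, adjusted p = 0.0903) or the cKO (0.16 ± 0.06, adjusted p = 0.0999). Mcm3 was called in Chd8neo/neo (0.20 ± 0.06, adjusted p = 0.0423), but that call was lost in 13 of the 22 alternatives, among them the replicate block, the sex covariate, only the 2 groups and leaving out any 1 library except Chd8+/- replicate 2 or Chd8neo/neo replicate 3. In Chd8neo/- it had 0.18 ± 0.06, adjusted p = 0.0502. In the cKO 0 of the 7 genes were called and 3 had an unadjusted p under 0.05. There the summed MCM level was 2730.6 to 2808 CPM, above the 2511.6 to 2700.4 of Ctrl.

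Of the 8 genes that turn MCM into the active helicase, Mcm10, Gins2 and Gins4 rose in Chd8neo/neo, Gins2 and Gins4 rose in Chd8neo/-, and Gins1 fell in the cKO. The 4 GINS proteins form 1 tetramer, so their values are set side by side. Gins4 read 35.9, 39.2 and 36.9 in Chd8+/+, 42.5, 38.9 and 40.9 in Chd8+/-, 42.9, 43.6 and 43.8 in Chd8neo/neo, and 45.9, 47.5 and 47.8 in Chd8neo/- CPM. Both hypomorphs lay above Chd8+/+, and Chd8neo/- above Chd8neo/neo (0.22 ± 0.05, adjusted p = 0.0166 and 0.34 ± 0.05, adjusted p = 0.000837). In the E10.5 groups Gins4 read 60.01, 50.97 and 52.2 in Ctrl against 59.1, 57.1 and 62.9 in cKO CPM and overlapped (0.13 ± 0.07, adjusted p = 0.266). Gins2 read 25.7, 28.8 and 28.4 in Chd8+/+, 28.4, 30.4 and 30.1 in Chd8+/-, 34.02, 35.1 and 32.2 in Chd8neo/neo, and 33.8, 35.5 and 32.4 in Chd8neo/- CPM and rose in both hypomorphs (0.29 ± 0.06, adjusted p = 0.0109 and 0.29 ± 0.06, adjusted p = 0.0058), and at E10.5 it read 45.9, 42.4 and 45.2 in Ctrl against 46.1, 41.2 and 44.8 in cKO CPM (-0.02 ± 0.07, adjusted p = 0.913). Exons of Gse1 overlap 67.3% of the exon bases of Gins2, so its counts are uncertain. Gins1 read 30.2, 33.8 and 32.2 in Chd8+/+, 30.9, 30.6 and 33.2 in Chd8+/-, 33.4, 33.5 and 32.6 in Chd8neo/neo, and 33.5, 35.2 and 32.2 in Chd8neo/- CPM with overlapping groups (0.05 ± 0.06, adjusted p = 0.647 in Chd8neo/neo). In the cKO it fell by 24.1%, with 56.4, 51.5 and 50.2 in Ctrl against 42.2, 38.7 and 39.2 in cKO CPM and no overlap (-0.40 ± 0.07, adjusted p = 0.00514). Gins3 read 21.5, 22.6 and 23.96 in Chd8+/+, 21.7, 21.5 and 23.7 in Chd8+/-, 24.99, 24.4 and 22.96 in Chd8neo/neo, and 23.5, 24.1 and 22.1 in Chd8neo/- CPM, with 0.09 ± 0.06, adjusted p = 0.404 in Chd8neo/neo. At E10.5 its libraries did not overlap either, 40.4, 37.01 and 40.9 in Ctrl against 34.6, 34.4 and 33.7 in cKO CPM, and it was not called (-0.20 ± 0.07, adjusted p = 0.072). Wdhd1 couples the helicase to the primase. It read 93.6, 89.2 and 90.8 in Chd8+/+, 89.96, 89.7 and 92.8 in Chd8+/-, 105, 99.7 and 91.5 in Chd8neo/neo, and 92.4, 92.6 and 90.4 in Chd8neo/- CPM, and 156, 156 and 152 in Ctrl against 143, 147 and 138 in cKO CPM at E10.5, and was called in no comparison with a control (0.11 ± 0.05, adjusted p = 0.141 in Chd8neo/neo and -0.11 ± 0.05, adjusted p = 0.195 in the cKO). Mcm10 rose in Chd8neo/neo (0.23 ± 0.05, adjusted p = 0.0176). Ticrr, which helps load Cdc45, had a larger log2 fold change (0.31 ± 0.10, adjusted p = 0.0887) with a wider error and was not called, and neither was Cdc45 (0.16 ± 0.06, adjusted p = 0.114).

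Polymerase genes moved in both directions. Pold1, the catalytic subunit of the lagging-strand polymerase δ, and Pold2, its second subunit, rose in both hypomorphs and in the cKO. Pold2 read 50.7, 57.4 and 56.2 in Chd8+/+, 60.9, 57.7 and 61.3 in Chd8+/-, 67.7, 71.6 and 68.6 in Chd8neo/neo, and 74.8, 73.2 and 73.6 in Chd8neo/- CPM. The order of the groups held library by library: all Chd8+/- libraries lay above Chd8+/+, all Chd8neo/neo above those, and all Chd8neo/- above Chd8neo/neo. The heterozygote was not called (0.13 ± 0.05, adjusted p = 0.726). Pold2 rose by 26.5% in Chd8neo/neo (0.34 ± 0.05, adjusted p = 0.00243) and by 34.8% in Chd8neo/- (0.43 ± 0.05, adjusted p = 0.000154). In the cKO, with 65.5, 62.001 and 64.6 in Ctrl against 80.2, 79.4 and 84.1 in cKO CPM, it rose by 26.9% (0.34 ± 0.06, adjusted p = 0.00413). Pold1 read 108, 97.1 and 111 in Chd8+/+, 97.8, 103 and 106 in Chd8+/-, 134, 129 and 121 in Chd8neo/neo, and 126, 127 and 116 in Chd8neo/- CPM and 144, 153 and 153 in Ctrl against 182, 169.6 and 170.0 in cKO CPM, and rose in Chd8neo/neo (0.28 ± 0.06, adjusted p = 0.0106), Chd8neo/- (0.22 ± 0.06, adjusted p = 0.0195) and cKO (0.21 ± 0.06, adjusted p = 0.0365). Pole2, the second subunit of the leading-strand polymerase ε, read 28.9, 30.4 and 30.4 in Chd8+/+, 29.1, 28.1 and 29.5 in Chd8+/-, 29.95, 30.7 and 27.6 in Chd8neo/neo, and 28.03, 27.9 and 27.1 in Chd8neo/- CPM. All Chd8neo/- libraries lay below Chd8+/+, without a call (-0.11 ± 0.05, adjusted p = 0.186), and Chd8neo/neo overlapped the controls (-0.02 ± 0.05, adjusted p = 0.836). It fell in the cKO by 27.3%, from 59.3, 51.5 and 56.5 to 42.02, 39.97 and 39.6 CPM (-0.46 ± 0.07, adjusted p = 0.00234). The catalytic subunit Pole was called in none of these, with values for Chd8neo/neo, Chd8neo/- and cKO in that order, as for later genes with 3 values (0.14 ± 0.05, adjusted p = 0.119, 0.07 ± 0.05, adjusted p = 0.459 and 0.12 ± 0.08, adjusted p = 0.365). Prim1, the catalytic primase subunit, read 81.3, 85.1 and 83.2 in Chd8+/+, 85.4, 79.5 and 87.5 in Chd8+/-, 90.5, 87.8 and 85.6 in Chd8neo/neo, and 86.6, 89.8 and 85.3 in Chd8neo/- CPM and, at E10.5, 121, 112 and 113 in Ctrl against 97.8, 94.5 and 97.1 in cKO CPM. It fell in the cKO (-0.26 ± 0.06, adjusted p = 0.0164), while its partner Prim2 had -0.02 ± 0.08, adjusted p = 0.899. Pold3, a further polymerase δ subunit, read 123, 116 and 117 in Chd8+/+, 115, 109 and 113 in Chd8+/-, 134, 127 and 120.0 in Chd8neo/neo, and 125, 121 and 117 in Chd8neo/- CPM and 196, 183 and 191 in Ctrl against 175, 171 and 175 in cKO CPM, all cKO libraries below Ctrl, and was not called (0.10 ± 0.04, adjusted p = 0.19 in Chd8neo/neo and -0.13 ± 0.05, adjusted p = 0.144 in the cKO). Pola1 and Pola2 of polymerase α were called in neither hypomorph against Chd8+/+ nor in the cKO.

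Among the clamp loader subunits 3 rose in the hypomorphs and 1 fell in the cKO. The loader, replication factor C, opens the ring of PCNA and sets it on DNA. Rfc5 read 57.95, 53.7 and 53.8 in Chd8+/+, 55.2, 56.8 and 59.4 in Chd8+/-, 75.03, 73.8 and 62.7 in Chd8neo/neo, and 70.2, 69.1 and 67.2 in Chd8neo/- CPM, each hypomorph library above every Chd8+/+ library, and rose by 27.9% and 24.8% (0.35 ± 0.06, adjusted p = 0.00572 and 0.32 ± 0.06, adjusted p = 0.00535). Its cKO libraries also lay above Ctrl, 94.7, 94.1 and 94.6 in Ctrl against 106, 101 and 109 in cKO CPM, without a call (0.15 ± 0.05, adjusted p = 0.0928). Rfc2 read 107, 116 and 113 in Chd8+/+, 115, 108 and 114 in Chd8+/-, 125, 127 and 126 in Chd8neo/neo, and 133, 132 and 129.9 in Chd8neo/- CPM, with no hypomorph library overlapping Chd8+/+, and rose in both hypomorphs (0.17 ± 0.04, adjusted p = 0.0166 and 0.23 ± 0.04, adjusted p = 0.00183). Ctrl and cKO overlapped at 171, 155 and 156 in Ctrl against 182, 167 and 171 in cKO CPM (0.11 ± 0.06, adjusted p = 0.276). Rfc4 read 45.1, 48.63 and 50.6 in Chd8+/+, 51.3, 51.3 and 52.7 in Chd8+/-, 60.1, 59.3 and 53.2 in Chd8neo/neo, and 56.2, 59.8 and 60.4 in Chd8neo/- CPM and 88.9, 75.8 and 82.8 in Ctrl against 82.2, 79.96 and 81.8 in cKO CPM. It rose in both hypomorphs (0.26 ± 0.06, adjusted p = 0.0157 and 0.29 ± 0.06, adjusted p = 0.00545) and was not called in the cKO (-0.02 ± 0.07, adjusted p = 0.873). Rfc3 read 63.5, 67.6 and 65.7 in Chd8+/+, 64.3, 67.4 and 69.5 in Chd8+/-, 72.5, 74.2 and 70.6 in Chd8neo/neo, and 69.8, 72.7 and 72.8 in Chd8neo/- CPM, all hypomorph libraries above Chd8+/+ without a call (0.14 ± 0.04, adjusted p = 0.0602 and 0.13 ± 0.04, adjusted p = 0.0714). In the cKO it fell by 17.6%, with 117, 101 and 103 in Ctrl against 93.6, 85.4 and 85.6 in cKO CPM (-0.28 ± 0.07, adjusted p = 0.0277). Pcna (0.15 ± 0.06, adjusted p = 0.161, 0.16 ± 0.06, adjusted p = 0.119 and -0.11 ± 0.07, adjusted p = 0.309) and the large subunit Rfc1 were not called. The tables list 2 Pcna pseudogenes, which could share its reads. Exons of other genes overlap 10.7 to 15.1% of the exon bases of Rfc2, Rfc4 and Rfc5, as they do for 29.8% in Orc2, 12.6% in Mcm7 and 10.8% in Orc1.

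Replication protein A (RPA), a trimer, coats single-stranded DNA, and Fen1, Dna2 and Lig1 trim and seal the fragments of the lagging strand. Rpa3, the smallest RPA subunit, was the one gene of the 49 that was called in opposite directions. It read 30.5, 32.02 and 32.4 in Chd8+/+, 34.8, 30.9 and 36.1 in Chd8+/-, 34.1, 35.8 and 33.02 in Chd8neo/neo, and 37.2, 35.6 and 37.6 in Chd8neo/- CPM and rose in Chd8neo/- (0.22 ± 0.06, adjusted p = 0.0296). In the E10.5 groups it read 54.4, 50.4 and 46.02 in Ctrl against 41.95, 37.7 and 39.5 in cKO CPM and fell (-0.34 ± 0.08, adjusted p = 0.0172), and no library overlapped in either comparison. The Chd8neo/- call was lost in 8 of 22 alternatives (without any 1 Chd8+/+ or Chd8neo/- library, with the first run only, and with length and GC trends removed), with log2 fold changes down to 0.13, and the cKO call without cKO replicate 2 or 3 and with those trends removed. Rpa2 was called higher in Chd8neo/- (0.18 ± 0.05, adjusted p = 0.0427), a call lost in 12 of 22 alternatives, among them leaving out any 1 Chd8+/+ or Chd8neo/- library, and Rpa1 was not called (0.11 ± 0.05, adjusted p = 0.206, 0.09 ± 0.05, adjusted p = 0.333 and 0.14 ± 0.05, adjusted p = 0.119). Dna2, a nuclease and helicase, read 59.1, 55.5 and 54.4 in Chd8+/+, 56.2, 52.5 and 59.5 in Chd8+/-, 78.3, 73.3 and 62.8 in Chd8neo/neo, and 69.9, 66.4 and 60.7 in Chd8neo/- CPM. It rose by 26.7% in Chd8neo/neo (0.34 ± 0.08, adjusted p = 0.0188), lay above the controls in Chd8neo/- without a call (0.22 ± 0.08, adjusted p = 0.0827), and at E10.5 read 109.9, 119 and 107 in Ctrl against 123, 117 and 105 in cKO CPM (0.04 ± 0.07, adjusted p = 0.765). Fen1 and Lig1 were called in no comparison. Other genes share 84.2% of the exon bases of Fen1, so its level is uncertain.

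Of the 4 nucleotide supply genes among the 49, 0 were called higher in any comparison. Of all genes 3.71% rose in Chd8neo/neo, 5.48% in Chd8neo/- and 5.75% in the cKO, so 0 of 4 is near that share. Further genes of nucleotide supply, some of which rose, are given below. Tk1, the thymidine kinase of the salvage pathway, read 63.4, 68.4 and 66.5 in Chd8+/+, 58.9, 49.6 and 60.99 in Chd8+/-, 63.4, 60.1 and 62.4 in Chd8neo/neo, and 56.3, 54.9 and 53.4 in Chd8neo/- CPM. All Chd8+/- and all Chd8neo/- libraries lay below Chd8+/+. It was the single gene of the 49 that fell at E12.5, by 17% in Chd8neo/- (-0.27 ± 0.06, adjusted p = 0.0164), a call that was lost without Chd8+/+ replicate 2 or 3 or Chd8neo/- replicate 2 or 3. Values in Chd8+/- (-0.23 ± 0.06, adjusted p = 0.565) and Chd8neo/neo (-0.09 ± 0.06, adjusted p = 0.395) were not called. At E10.5 it read 109, 100.5 and 98.5 in Ctrl against 85.9, 76.4 and 76.6 in cKO CPM and fell (-0.37 ± 0.07, adjusted p = 0.00746). Ribonucleotide reductase makes all 4 deoxynucleotides. Its large subunit Rrm1 read 409, 454 and 447 in Chd8+/+, 422, 423 and 447 in Chd8+/-, 437, 446 and 405 in Chd8neo/neo, and 391, 419 and 397 in Chd8neo/- CPM with overlapping groups and 582, 484 and 534 in Ctrl against 425, 451 and 432 in cKO CPM at E10.5, where it fell by 18.2% (-0.29 ± 0.07, adjusted p = 0.0278). Its small subunit Rrm2 read 332, 332 and 375 in Chd8+/+, 335, 342 and 349 in Chd8+/-, 429.7, 431 and 330.1 in Chd8neo/neo, and 383, 365 and 382 in Chd8neo/- CPM. Chd8neo/neo replicates 1 and 2 stood above every Chd8+/+ library and replicate 3 below every one, and the gene was not called (0.20 ± 0.09, adjusted p = 0.171), nor at E10.5 with 626, 627 and 567 in Ctrl against 609, 581 and 570.2 in cKO CPM (-0.05 ± 0.06, adjusted p = 0.679). Tyms, which makes thymidylate, was not called (0.03 ± 0.05, adjusted p = 0.794, -0.03 ± 0.05, adjusted p = 0.789 and -0.05 ± 0.06, adjusted p = 0.631). The summed level of the 4 genes was 1203.7 to 1251.5 CPM in cKO, below the 1326.4 to 1460.5 of Ctrl.

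**Figure D3:**
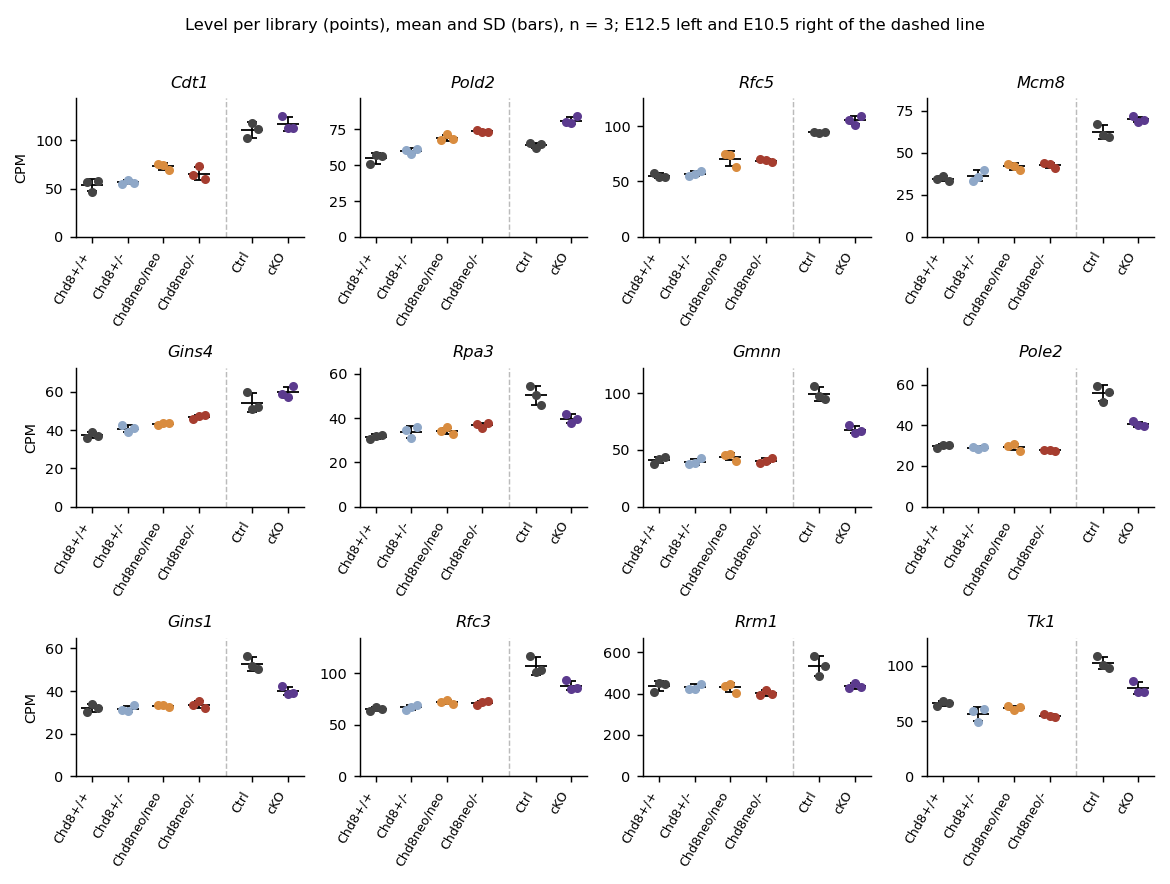
Level of 12 genes in each library in CPM (coloured points), with the mean and SD (black bars, n = 3), at E12.5 left and E10.5 right of the dashed line. Every mutant library lies above its controls for Pold2, every hypomorph library lies above Chd8+/+ for Cdt1 and Rfc5, and Gmnn, Pole2 and Gins1 are lower in the cKO libraries than in every Ctrl library.

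Against the heterozygote, the mild hypomorph again had higher replication genes. Whole-gene Chd8 counts were lower in Chd8+/- than in Chd8neo/neo, but the study's RT-PCR and Western blots put Chd8neo/neo lower. 11 of the 49 rose and 0 fell (Cdt1, Dna2, Mcm2, Mcm10, Pold1, Pold2, Rfc2, Rfc5, Pola2, Pold3 and Pole), with a median log2 fold change of 0.13 (all genes 0.006). Of all genes, 2% rose and 3.28% fell. Polymerase genes made up 5 of the 11, among them Pola2 (0.21 ± 0.04, adjusted p = 0.0227), the B subunit of polymerase α, Pold3 (0.18 ± 0.04, adjusted p = 0.0372) and Pole (0.20 ± 0.05, adjusted p = 0.0439). Pold1 (0.32 ± 0.06, adjusted p = 0.0143), Rfc5 (0.30 ± 0.06, adjusted p = 0.0201) and Cdt1 (0.37 ± 0.08, adjusted p = 0.0298) had the larger log2 fold changes along with Dna2 (0.35 ± 0.08, adjusted p = 0.0267). With the replicate number as a block the count was 5, and with sex as a covariate 3. Over all genes those fits called 201 and 132 higher, against 377 without either term. The count of 11 was 0 without Chd8+/- replicate 1, Chd8neo/neo replicate 1 or Chd8neo/neo replicate 2, 22 without Chd8neo/neo replicate 3, 4 and 5 without Chd8+/- replicate 2 and 3, 5, 6 and 6 without Chd8neo/- replicate 1, 2 and 3, and 7 without Chd8+/+ replicate 3. Few genes of any kind were called in the fits that gave 0: 15, 26 and 10 of all genes were higher there. Without Chd8neo/neo replicate 3 it was 715. The drop to 0 is therefore not read as a result about the replication genes. By Xist and Y-linked counts, 1 of the Chd8+/- libraries came from a female embryo, and 2 of the Chd8neo/neo libraries, replicates 1 and 2. The part of sex in the result was tested by that covariate only. Each of the 11 calls was lost in 3 to 16 of 22 alternatives.

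Between the hypomorphs, 0 of the 49 genes were called with edgeR or DESeq2, and of all genes 0.0106% were higher and 0.00532% lower in Chd8neo/-. An unadjusted p under 0.05 was found for 3 of the 49 (all genes 1585 of 18810). The median was -0.04 (all genes 0.003), with 33 genes lower in Chd8neo/-. Chd8 itself was lower in Chd8neo/- (-0.49 ± 0.04, adjusted p = 0.000239). Pold2, Gins4, Orc3 and Rfc2 were the 4 genes whose Chd8neo/- libraries all lay above Chd8neo/neo, with 0.09 ± 0.05, adjusted p = 0.63 for Pold2 and 0.12 ± 0.05, adjusted p = 0.564 for Gins4. Tk1 was the 1 gene with all of them below (-0.18 ± 0.06, adjusted p = 0.534). The share of all genes without overlap was not computed.

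The E10.5 and E12.5 changes were compared in 1 model over all 18 libraries, which tests the difference of the log2 fold changes directly. Of the 49 genes, 12 had a lower change in cKO than in Chd8neo/neo and 0 a higher one, with a median difference of -0.20 (all genes -0.02), where 3.16% of 19565 genes had a lower and 3.64% a higher change. Against Chd8neo/-, 9 had a lower change and 0 a higher one, with a median of -0.15, where 2.89% of all genes had a lower and 3.9% a higher change. DESeq2 gave 13 and 10 lower and 0 higher. Gmnn had the widest difference from Chd8neo/neo (-0.66 ± 0.10, adjusted p = 0.000653), and -0.54 ± 0.10, adjusted p = 0.00393 from Chd8neo/-. Rpa3 had the widest difference from Chd8neo/- (-0.56 ± 0.10, adjusted p = 0.00255), and -0.46 ± 0.10, adjusted p = 0.00854 from Chd8neo/neo. Gins1 differed by -0.45 ± 0.09, adjusted p = 0.00508, and by -0.47 ± 0.09, adjusted p = 0.00394. For Pole2 the values were -0.44 ± 0.08, adjusted p = 0.00437 and -0.35 ± 0.08, adjusted p = 0.018, and for Rfc3 -0.42 ± 0.08, adjusted p = 0.00437 and -0.41 ± 0.08, adjusted p = 0.00594. Prim1 (-0.34 ± 0.07 and -0.33 ± 0.07), Orc6 (-0.30 ± 0.07 and -0.27 ± 0.07) and Gins2 (-0.31 ± 0.09 and -0.31 ± 0.09) were also called against both. Orc1, Gins3, Wdhd1 and Pold3 were called against Chd8neo/neo alone and Rfc4 against Chd8neo/- alone, and whether the 2 differences differ was not tested. The differences of Gmnn, Rpa3, Gins1, Rfc3 and Prim1 from both hypomorphs, and of Pole2 and Orc6 from Chd8neo/neo, were called in all 23 alternatives. The others depended on the processing or on single libraries. From Chd8neo/-, the call of Pole2 was lost without Chd8neo/- replicate 1, without cKO replicate 2 and with length and GC trends removed (down to -0.19), and that of Orc6 in 8 of 23, without Chd8+/+ replicate 3, Chd8neo/- replicate 1 or 3, Ctrl replicate 1 or cKO replicate 2 or 3, with no filter, and with those trends removed (down to -0.14). Gins2 was lost in 14 of 23 from Chd8neo/neo and in 13 from Chd8neo/-, Gins3 in 19, Pold3 in 15, Wdhd1 in 11 and Rfc4 in 14, each including scaling by relative log expression (RLE) in place of TMM, no filter and leaving out cKO replicate 2 or 3. Orc1 was lost in 6, without Chd8+/+ replicate 2 or 3, Chd8neo/neo replicate 1 or 2, or cKO replicate 2 or 3.

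The 7 MCM genes had differences between -0.18 and 0.02 (median -0.08 against either hypomorph, 0 called, 1 with an unadjusted p under 0.05 in each). Pold2 (0.00 ± 0.07, adjusted p = 0.996 and -0.09 ± 0.07, adjusted p = 0.499) and Pold1 (-0.07 ± 0.08, adjusted p = 0.654 and -0.01 ± 0.08, adjusted p = 0.951), which rose at both ages, were not called either. The count of 12 was 22 without Chd8neo/neo replicate 3 and 7 without Chd8+/+ replicate 3, Chd8neo/neo replicate 1 or 2, or cKO replicate 2 or 3. Over all genes, 618 had a lower change with all libraries, and 729, 317, 338, 353, 265 and 318 in those fits. The count of 9 was 5 without Chd8neo/- replicate 1 or cKO replicate 2, where the count over all genes went from 566 to 259 and 213. Age, dissected tissue, allele, Cre, pooling and the separate sequencing of the E10.5 libraries cannot be told apart in these differences.

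**Figure D4:**
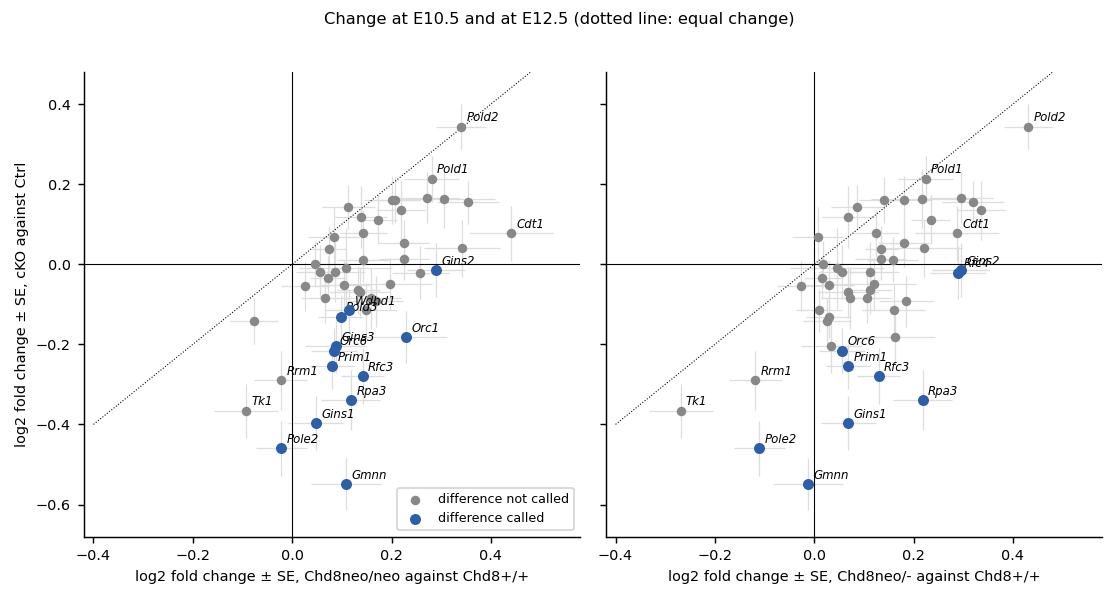
Log2 fold change in cKO against Ctrl (vertical) against that in Chd8neo/neo (left panel, horizontal) or Chd8neo/- (right panel) for the 49 genes, with standard errors. The dotted line marks equal change. Blue genes, 12 on the left and 9 on the right, have a difference with an adjusted p under 0.05, and all of them lie below the line.

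Most genes that fell in the cKO were short. Their median exon length was 1695 bases (n = 9), against 4347 for the other 40, and the 17 genes called higher in a hypomorph had 4097. Over all genes the cKO change was higher in longer genes, from a median log2 fold change of -0.09 under 1000 bases and -0.05 between 1000 and 2000 to 0.02 between 4000 and 8000 and 0.03 above. In the hypomorphs the trend ran the other way, from 0.07 under 1000 bases to -0.09 above 8000 in Chd8neo/- and from 0.05 to -0.07 in Chd8neo/neo. The difference of the changes went from -0.16 to 0.12 against Chd8neo/- and from -0.14 to 0.09 against Chd8neo/neo. In the cKO the 8 replication genes of 1000 to 2000 bases had a median of -0.28, with 5 of them lower. Of all genes of that length 5.09% were called lower, against 4.1% under 1000 bases and 6.46% between 4000 and 8000. In an analysis added after the data were seen, each library's trends on exon length and on GC were taken out before the fit. In the cKO 9 genes then fell and 1 rose: Gmnn, Pole2, Gins1, Prim1, Rfc3, Rrm1, Orc6 and Tk1 fell again, Gins3 was added, Rpa3 had an adjusted p of 0.0506, and Pold1 had 0.081. Of all 18345 genes in that cKO fit, 1158 fell and 1036 rose. In the hypomorphs 19 genes rose in Chd8neo/neo, and in Chd8neo/- 14 rose and 2 fell (Tk1 and Pole2). Of all 18703 genes there, 776 rose and 515 fell in Chd8neo/neo, and 934 rose and 679 fell in Chd8neo/-. The 2 falls among the 49 are close to that share. In the test of the differences, 13 genes then had a lower change in cKO than in Chd8neo/neo, with Gins3 lost, and 6 than in Chd8neo/-, with Pole2, Orc6 and Rfc4 lost. Over all 19448 genes these counts were 676 and 463.

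Cell type markers moved in some of the same comparisons, and their part in the replication genes was not tested. Of all genes, 3.71% rose and 4.45% fell in Chd8neo/neo, and 5.48% rose and 5.99% fell in Chd8neo/-. A single call in a short list is therefore not read as a change of that cell type. Of 13 neuron markers, 3 fell in Chd8neo/neo (Map2, Dcx and Snap25, list median -0.32) and 2 in Chd8neo/- (Dcx and Map2, -0.14). Their summed level was 3833 to 4574.7 CPM in Chd8+/+, 3972 to 4624.3 in Chd8+/-, 3140.4 to 3709.3 in Chd8neo/neo and 3514.9 to 3933.6 in Chd8neo/-, so Chd8neo/neo lay wholly below Chd8+/+. Of 10 radial glia markers, Pax6 and Sox2 rose in Chd8neo/neo (list median 0.14) and 0 were called in Chd8neo/- (1 with an unadjusted p under 0.05), with summed levels of 3242.8 to 3477 in Chd8+/+, 3191.5 to 3917 in Chd8neo/neo and 3434.1 to 3524.3 CPM in Chd8neo/-. Of 8 intermediate progenitor markers, Gadd45g rose in Chd8neo/neo, the summed levels being 557.78 to 577.93 in Chd8+/+, 569.68 to 607.25 in Chd8neo/neo and 557.87 to 588.64 CPM in Chd8neo/-. None of these markers was at 0 at E12.5. Red blood cell genes rose in Chd8neo/- (4 of 10, median 0.65), where they summed to 4664.9 to 7254.1 CPM against 3322.8 to 4056.2 in Chd8+/+. Gad1 of 10 ventral telencephalon genes fell in both hypomorphs, and Kdr of 8 endothelial genes fell in Chd8neo/neo.

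At E10.5 neuron markers were low in both groups, 225.49 to 405.85 CPM in Ctrl and 265.36 to 366.96 in cKO, with Neurod6 at 0 in all 6 libraries. Of the 11 that could be tested, 1 fell (Snap25). Of 8 intermediate progenitor and 10 red blood cell genes 0 were called (1 and 0 with an unadjusted p under 0.05). Radial glia markers summed to 3342.6 to 3694.7 CPM in Ctrl and 3463.1 to 3833.7 in cKO, with 1 of 10 lower (Prom1). Of 9 genes of meninges and mesenchyme, Col1a2 and Col3a1 rose (list median 0.25), and the summed level was 755.4 to 848.57 CPM in Ctrl and 933.44 to 1117.3 in cKO, without overlap. Perp rose, the only 1 of 7 surface ectoderm genes with an unadjusted p under 0.05. The summed level of that list overlapped, at 35.7 to 70.9 CPM in Ctrl and 56.8 to 89.8 in cKO. Cdh5 of 8 endothelial genes and Cx3cr1 of 8 macrophage and microglia genes rose, and Gsx2 of 10 ventral telencephalon genes fell. Of all genes 5.75% rose and 5.7% fell, so a single call in a short list is not read as a change of that cell type.

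Other genes of the same processes were listed by name too. Of 34 further replisome and fork genes, 9 rose in Chd8neo/neo and 0 fell (median 0.10), 5 rose and 2 fell in Chd8neo/- (median 0.03), and 0 rose and 8 fell in the cKO (median -0.08). The shares of all genes called higher and lower were 3.71% and 4.45% in Chd8neo/neo, 5.48% and 5.99% in Chd8neo/-, and 5.75% and 5.7% in the cKO, here and for the following lists. Those with the smallest p in Chd8neo/neo were Chaf1b (0.30 ± 0.05, adjusted p = 0.0057), a histone chaperone subunit at the fork, Tipin (0.25 ± 0.05, adjusted p = 0.0133) and Rnaseh2c (0.35 ± 0.08, adjusted p = 0.0184). In Chd8neo/- they were Chaf1b (0.34 ± 0.05, adjusted p = 0.0013), Timeless (-0.32 ± 0.06, adjusted p = 0.00472) and Rif1 (-0.21 ± 0.04, adjusted p = 0.00884). Timeless and Tipin form 1 fork protection complex, and in Chd8neo/- Tipin rose (0.23 ± 0.05, adjusted p = 0.0123) while Timeless fell. In the cKO Timeless (-0.37 ± 0.06, adjusted p = 0.0035), the histone chaperone Nasp (-0.36 ± 0.06, adjusted p = 0.00673) and the origin-firing kinase Cdc7 (-0.37 ± 0.08, adjusted p = 0.014) had the smallest p.

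Of 26 further nucleotide supply genes, 5 rose and 0 fell in the cKO, against 5.75% and 5.7% of all genes. They were Cad (0.57 ± 0.09, adjusted p = 0.00542), which starts pyrimidine synthesis, Impdh2 (0.28 ± 0.06, adjusted p = 0.0128), Mthfd1 (0.28 ± 0.06, adjusted p = 0.0142), Gart and Atic, the last 4 being genes of purine or one-carbon metabolism. Cad had a mean of 256.84 CPM in Ctrl and 380.16 in cKO. In the hypomorphs Dut, which removes dUTP (0.32 ± 0.05, adjusted p = 0.0053), Shmt1 (0.35 ± 0.06, adjusted p = 0.00593) and Impdh2 (0.25 ± 0.05, adjusted p = 0.011) rose in Chd8neo/neo, and in Chd8neo/- the same 3 genes rose together with Dctpp1.

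Of 30 mitosis genes, 4 rose in Chd8neo/neo (Ube2c, Cdc20, Cenpa and Plk1, median 0.10), 3 in Chd8neo/- (Cdc20, Ube2c and Cenpa, median 0.08), and 4 fell in the cKO (Pttg1, Nuf2, Mad2l1 and Kif11, median -0.14), where 3.71% and 5.48% of all genes rose in the hypomorphs and 5.7% fell in the cKO. Among these, Ube2c had 0.27 ± 0.05 in Chd8neo/neo (adjusted p = 0.00572), Cdc20 0.24 ± 0.05 in Chd8neo/- (adjusted p = 0.00462), and Pttg1, the securin that guards sister chromatids, -0.56 ± 0.10 in the cKO (adjusted p = 0.00611). Of 13 E2F and pocket protein genes, which regulate the replication genes, E2f4, Rbl1, E2f1 and E2f5 rose in Chd8neo/neo. E2f4 had 0.22 ± 0.05 (adjusted p = 0.0216), Rbl1 0.22 ± 0.05 (adjusted p = 0.0222) and E2f1 0.25 ± 0.06 (adjusted p = 0.0253). In Chd8neo/- E2f5 and Rbl1 rose and Rbl2 fell, and in the cKO E2f7 rose (0.27 ± 0.06, adjusted p = 0.0227) and E2f2 fell (-0.25 ± 0.06, adjusted p = 0.0312).

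Levels within a role were compared per kilobase of exon in the control groups. In Chd8+/+ the highest were Pcna (141 ± 11.8 CPM per kilobase, SD, n = 3), Rrm2 (125 ± 8.86), Rrm1 (109 ± 5.96) and Mcm7 (82.9 ± 4.61), and the lowest of the 49 were Fen1 (3.72 ± 0.46) and Orc1 (4.11 ± 0.24). That low rank is uncertain, since other genes share 84.2% of the exon bases of Fen1 and 10.8% of those of Orc1. Of the hexameric MCM genes Mcm7 led, followed by Mcm5 (70.3 ± 2.69), Mcm3 (64.5 ± 2.79), Mcm6 (59.4 ± 2.25), Mcm4 (56.1 ± 2.74) and Mcm2 (41.7 ± 1.84), with Mcm8 far below (9.33 ± 0.41). Within origin recognition Orc6 led (40.1 ± 1.39), within licensing Gmnn (27.97 ± 1.89) and Cdt1 (24.6 ± 2.75), which did not differ beyond their spread. Among the polymerases Pold2 (28.9 ± 1.89), Pold3 (28.7 ± 0.94) and Pola2 (28.001 ± 0.47) lay together. In Ctrl at E10.5 the top of the order was Rrm2 (219 ± 12.5), Pcna (194.6 ± 15.6), Rrm1 (133 ± 12.2) and Mcm7 (121 ± 8.92). Without the division by length, another gene led its role in 8 of the 16 combinations of role and group.

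All 49 genes had a higher mean CPM in Ctrl at E10.5 than in Chd8+/+ at E12.5. The ratio was lowest for Orc3 (1.06) and highest for Orc1 (2.95), with a median of 1.61. The 2 ages were scaled and sequenced apart and differ in dissected tissue, alleles and pooling, so age and these cannot be told apart in the ratios. The median coefficient of variation of the 49 genes within a group was 4.42% in Chd8+/+ and 5.71% in Ctrl.

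**Figure D5:**
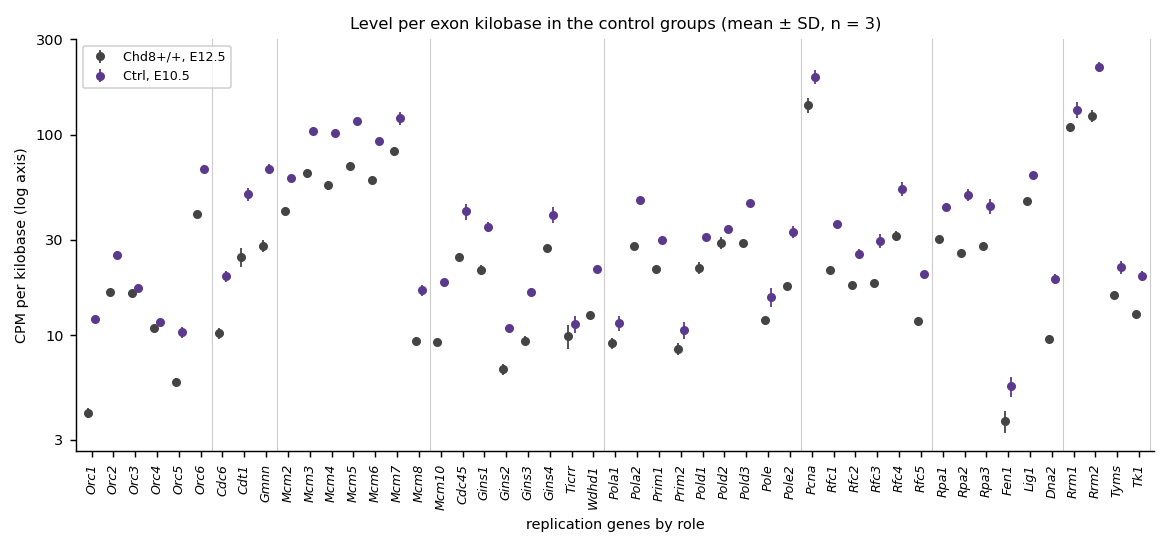
CPM per kilobase of exon (log axis) for the 49 genes ordered by role, as mean ± SD of 3 libraries, in Chd8+/+ at E12.5 (grey) and Ctrl at E10.5 (purple). Values range from 3.72 for Fen1 in Chd8+/+, uncertain because other genes share 84.2% of its exon bases, to 219 for Rrm2 in Ctrl, and each purple point lies above its grey point.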

How the data were processed

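RNA-seq counts per gene for 46603 genes were used as the authors deposited them. Per the study's methods, reads were trimmed with Trim Galore 0.4.1, aligned to GRCm38.p4 with TopHat2 2.1.0 and counted with featureCounts 1.5.0. The strand setting for E10.5 is not given in the sources used here. Both runs of each library were summed, giving 18 libraries of 38774591 to 68488879 counts. Genes with low counts were removed with filterByExpr. edgeR 4.0.16 (R 4.3.3), with TMM factors and a robust quasi-likelihood test, was fitted to the 12 E12.5 libraries together, to the 6 E10.5 libraries apart, and to all 18 for the differences between ages. P-values were adjusted by Benjamini-Hochberg over all genes tested, and an adjusted p under 0.05 was called. Standard errors are of the log2 fold change. The code was tested on simulated data. Replicates came from different litters, and the p-values rest on the variation between libraries within a group. By the study's methods the mutant genotypes came from different crosses, and neither cross nor litter was a term in the fits.

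The members and lists were chosen with earlier results of these data known. Every library's value is given for the genes with the smallest p of their role in 3 comparisons (both hypomorphs against Chd8+/+, and cKO against Ctrl), for every gene called lower and for every gene whose change differed between ages. The other pathway lists are given by counts and the 3 smallest p. Alternatives were DESeq2 1.42.0, other scalings, no filter, a replicate block, a sex covariate, single runs, only the 2 groups compared, and leaving out each library. Removal of exon length and GC trends (loess, span 0.5) was added after seeing the data. Same-numbered samples deviated together in Chd8neo/neo against Chd8+/- (correlations 0.21, 0.27 and 0.33), so the blocked value stands beside that result.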

Additional observations from a re-analysis of the deposited data

Results flagged for a closer look

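For 13 replication genes the change in the E10.5 cKO differed from the change in an E12.5 hypomorph, by a test of the difference itself in 1 edgeR model of 18 libraries (adjusted p under 0.05). All differences were negative, on the log2 scale and as cKO minus hypomorph. Against Chd8neo/neo they were -0.66 for Gmnn, -0.46 for Rpa3, -0.45 for Gins1, -0.44 for Pole2, -0.42 for Rfc3, -0.41 for Orc1, -0.34 for Prim1, -0.31 for Gins2, -0.30 for Orc6, -0.30 for Gins3, -0.23 for Pold3 and -0.23 for Wdhd1. Against Chd8neo/- they were -0.56 for Rpa3, -0.54 for Gmnn, -0.47 for Gins1, -0.41 for Rfc3, -0.35 for Pole2, -0.33 for Prim1, -0.31 for Gins2, -0.31 for Rfc4 and -0.27 for Orc6. Over 23 alternative analyses, 12 of these 21 calls held throughout. The others were lost in 19 for Gins3, 15 for Pold3, 11 for Wdhd1, 6 for Orc1, 14 and 13 for Gins2, and, from Chd8neo/-, 14 for Rfc4, 8 for Orc6 and 3 for Pole2. With length and GC trends removed, Gins3 from Chd8neo/neo and Pole2, Orc6 and Rfc4 from Chd8neo/- were not called. Age, dissected tissue, allele, Cre, pooling of embryos and separate sequencing cannot be told apart here. Groups of 3 libraries are too small for the check of single outlying libraries.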

How the results depend on the processing

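No called gene changed direction: over 71 calls and 1495 alternative values, 1153 stayed past the threshold, 342 did not, and 0 reversed. Of the 71 calls, 27 held in every alternative run. Leaving out each library in turn gave 4 to 23 higher genes in Chd8neo/neo against Chd8+/+, 7 to 16 higher and 0 to 1 lower in Chd8neo/-, 0 to 22 higher in Chd8neo/neo against Chd8+/-, and 1 to 2 higher and 3 to 10 lower in the cKO. Counts over all genes moved in the same fits. They were 196 to 999, then 480 to 1132 higher and 531 to 1442 lower. For the last 2 comparisons they were 10 to 715, and 290 to 1330 higher and 248 to 1153 lower. Genes with a lower change in cKO numbered 7 to 22 against Chd8neo/neo and 5 to 12 against Chd8neo/-, and 265 to 830 and 213 to 852 over all genes. With only the 2 groups fitted, 5 genes rose in Chd8neo/neo against Chd8+/+, and 169 of all 18313 genes did. In Chd8neo/neo against Chd8+/-, the count of 11 was 5 with the replicate block, 3 with the sex covariate, 7 with the first run only, 7 with the second run only and 2 with only the 2 groups. The count over all genes fell too, from 377 to 201, 132, 241, 222 and 20 in that order. The cause was not tested. With length and GC trends removed, 2 genes fell in Chd8neo/- and 1 rose in the cKO, where 679 of all 18703 and 1036 of all 18345 genes did. The replicate block gave 13 higher genes in Chd8neo/neo, 10 higher and 1 lower in Chd8neo/-, and 2 higher and 9 lower in the cKO, so it moved no other count by more than 1.5 times. Of 170 medians, 2 moved by more than the spread: the cKO median was -0.0772 without Ctrl replicate 2, and the median difference from Chd8neo/neo was -0.1472 without Chd8neo/neo replicate 1. Ranked by CPM and not per kilobase, the highest gene differed in 8 of 16 roles by group. The sex covariate was not run at E10.5, where libraries pool 2 embryos.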
